A study of Drosophila melanogaster with 38 samples.

Results

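The cytosolic ribosomal protein genes encode the protein part of the ribosomes that work in the cytoplasm. They were taken from the BDGP6 gene annotation as the protein-coding genes whose symbol starts with RpL or RpS followed by a digit, or with RpLP, together with sta, and the kinase genes S6k and S6kII were left out. The rule found 93 genes among 13945 protein-coding genes on X and the autosomes. Of these, 15 lay on X and 78 on autosomes. By symbol, 54 were assigned to the large subunit and 39 to the small subunit. Whether the 5 genes with symbols ending in -like encode subunit proteins was not checked. The rule used symbols only and no measured value.

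Each ribosome needs a copy of nearly every ribosomal protein, so most of these genes are expressed together, at high levels and in all tissues. In Drosophila many of them are haploinsufficient, and loss of 1 copy gives the Minute phenotype of slow development and short bristles. Males have 1 X chromosome, and the MSL complex, which contains MSL2 and the roX RNAs, raises the transcription of genes on it. The complex is thought to load at high-affinity sites, called HAS, and to reach active genes nearby.

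The series holds chromatin immunoprecipitation sequencing (ChIP-seq) of Drosophila melanogaster larvae of the third instar, with males and females kept apart and only the dissected front part of the animal fixed. It has 38 libraries, 19 of each sex, of which 26 are immunoprecipitations and 12 are inputs, with 1 library for each group. MSL2 was precipitated through a FLAG tag in larvae that carried msl-2227 over msl-2km, with tub-Gal4 over UAS-msl-2::3Flag, so the protein came from a transgene driven by tub-Gal4 in both sexes and not from the native promoter. The untagged FLAG control had the genotype msl-2227/km / CyO-GFP ; + / +. The MSL2 peaks analysed here came in 3 lists: a HAS list of 159 distinct intervals, a list of 680 other peaks on X and a list of 1685 autosomal peaks, 1669 of them on the chromosome arms used. Of the HAS list, 135 intervals lay on X and 24 on autosomes. The lists do not say which sex, genotype, library or threshold gave a peak, and they carry no usable height. A peak is therefore present or absent in what follows, the depth is unknown, and variation between animals could not be measured.

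A gene was scored as having a peak when an interval of any list overlapped the 1 kb on either side of 1 of its annotated transcription starts. By this measure 37 of the 93 ribosomal protein genes had a peak and 56 did not, against 16.2% of all protein-coding genes. On X, 11 of 15 genes (73.3%, 95% Wilson interval 48.0 to 89.1) had a peak, beside 30.9% of all protein-coding genes on X. On autosomes, 26 of 78 genes (33.3%, interval 23.9 to 44.4) had a peak, beside 13.5% of all autosomal protein-coding genes. These intervals cover counting error only.

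The share of ribosomal protein genes with a peak was 40.0 percentage points higher on X than on autosomes (odds ratio 5.50, Fisher's exact test, two-sided, p = 0.00771). The same comparison over all protein-coding genes gave a difference of 17.4 points (odds ratio 2.87, Fisher's exact test, two-sided, p = 7.53e-80). As a ratio of shares, the contrast was 2.20 for the ribosomal protein genes and 2.29 for all protein-coding genes, and whether the 2 contrasts differ was not tested. Neighbouring genes can share a peak and genes are not independent replicates, so these p-values describe the lists and not a spread between animals. The call was lost when a peak was counted only for the gene of any kind with the nearest start (7 of 15 against 20 of 78, difference 21.0 points, exact p = 0.124), and 2 of the X genes dropped there, sta and RpS6, lost their peak to a snoRNA gene. With the nearest start of a protein-coding gene the difference was 34.4 points (9 of 15 against 20 of 78, Fisher's exact p = 0.0139). Over all protein-coding genes that counting gave 506 of 2196 on X and 1143 of 11749 on autosomes. Both of these countings were chosen after seeing the data. Among the genes with no start of any other gene within 1 kb, 0 of 2 on X and 2 of 19 on autosomes had a peak, a difference of -10.5 points.

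**Figure D1:**
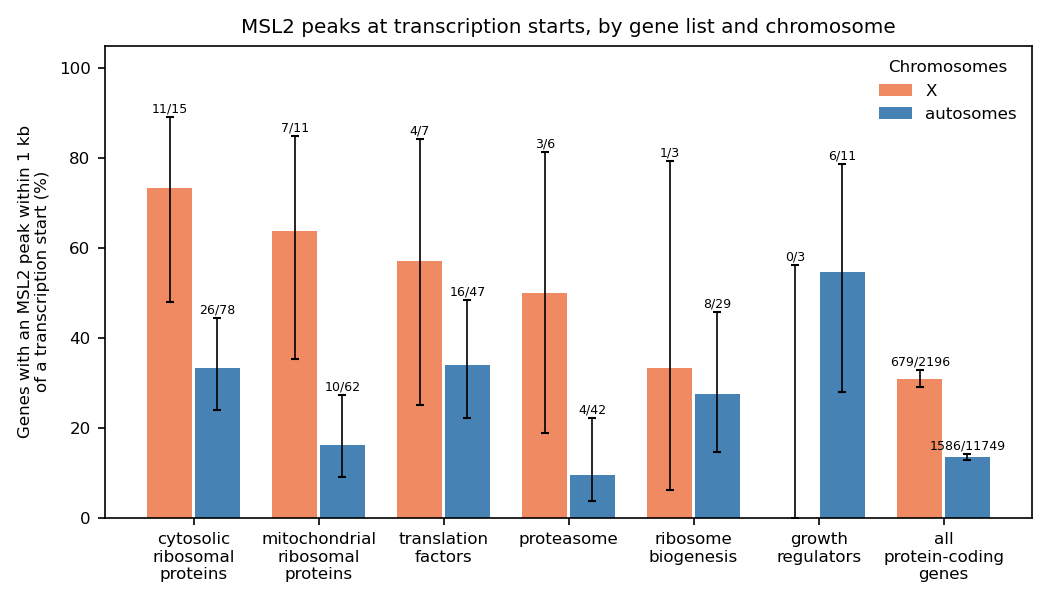
Percent of genes with an MSL2 peak within 1 kb of a transcription start, for the cytosolic ribosomal protein genes, 5 further gene lists and all protein-coding genes, on X (orange) and autosomes (blue). Bars start at 0, error bars are 95% Wilson intervals and the counts above them are genes with a peak of all genes in the list. The ribosomal protein genes stand at 73.3% on X and 33.3% on autosomes.

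What these promoters look like is shown first for a gene whose peak lies almost wholly before the gene. RpL23A encodes a large subunit protein at the exit of the nascent chain tunnel. Its peak, of the autosomal list, is 253 bp wide and reaches 23 bp past the start. The whole peak is printed on the strand of the gene, 5′ to 3′, in the Release 6 genome (dm6), with the pyrimidine initiator in capitals:
RpL23A (chr3L:1668631-1668883, minus strand): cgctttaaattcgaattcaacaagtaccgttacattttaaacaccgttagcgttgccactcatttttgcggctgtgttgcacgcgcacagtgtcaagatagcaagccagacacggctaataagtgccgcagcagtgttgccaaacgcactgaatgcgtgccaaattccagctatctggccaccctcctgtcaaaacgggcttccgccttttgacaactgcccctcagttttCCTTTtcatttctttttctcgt
In Drosophila, ribosomal protein genes commonly start within a run of pyrimidines, the TCT initiator, in place of the usual initiator, and their transcription uses the TBP-related factor TRF2. The initiator was searched as TCTTT or CCTTT on the sense strand, with its second base within 10 bp of the annotated start.

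Starts of 7 further genes with a peak are given next, because they show the same initiator at X-linked and autosomal genes. Each stretch runs from 60 bp before the start to 29 bp after it, and capitals mark the initiator word. RpL32 is shown at its start at 30046161, which holds the word, and the other genes at the canonical start:
RpL22 (chrX:765101-765190, minus strand): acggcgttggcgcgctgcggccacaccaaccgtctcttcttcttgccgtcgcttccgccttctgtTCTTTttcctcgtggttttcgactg
RpS14b (chrX:7934838-7934927, plus strand): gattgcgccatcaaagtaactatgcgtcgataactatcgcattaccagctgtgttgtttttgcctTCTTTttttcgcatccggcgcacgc
RpS28b (chrX:9554563-9554652, plus strand): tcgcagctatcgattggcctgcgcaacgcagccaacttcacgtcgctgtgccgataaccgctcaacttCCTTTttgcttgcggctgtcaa
RpS19a (chrX:16637834-16637923, plus strand): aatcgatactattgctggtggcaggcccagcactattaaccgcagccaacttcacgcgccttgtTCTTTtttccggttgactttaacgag
RpS5a (chrX:17148235-17148324, minus strand): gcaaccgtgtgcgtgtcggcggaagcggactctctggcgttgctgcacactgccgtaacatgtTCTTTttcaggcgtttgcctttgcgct
RpL4 (chr3R:27922761-27922850, plus strand): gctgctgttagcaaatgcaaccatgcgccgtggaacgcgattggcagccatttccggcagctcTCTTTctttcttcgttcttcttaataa
RpL32 (chr3R:30046132-30046221, minus strand): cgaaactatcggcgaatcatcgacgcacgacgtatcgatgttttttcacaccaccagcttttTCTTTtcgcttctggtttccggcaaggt
Starts of 5 genes without a peak follow, RpS14a and RpS5b among them as the copies of RpS14b and RpS5a:
RpS14a (chrX:7933682-7933771, plus strand): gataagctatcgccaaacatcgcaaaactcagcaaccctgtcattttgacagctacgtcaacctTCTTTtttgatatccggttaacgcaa
RpL37-1 (chrX:15139338-15139427, minus strand): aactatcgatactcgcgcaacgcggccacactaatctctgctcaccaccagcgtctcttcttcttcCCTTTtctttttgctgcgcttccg
RpL8 (chr3L:2587396-2587485, plus strand): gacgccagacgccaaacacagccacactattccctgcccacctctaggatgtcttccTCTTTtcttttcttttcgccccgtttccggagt
RpS3 (chr3R:23358752-23358841, plus strand): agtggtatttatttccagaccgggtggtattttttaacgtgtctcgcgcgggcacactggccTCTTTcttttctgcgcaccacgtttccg
RpS5b (chr3R:14901534-14901623, minus strand): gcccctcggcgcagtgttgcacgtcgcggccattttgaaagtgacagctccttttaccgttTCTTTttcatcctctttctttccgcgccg
Every start printed here holds the initiator, so its presence in both sets comes from the choice of starts and compares nothing.

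Over the whole group the initiator did not separate genes with a peak from genes without. At the canonical start it was found in 22 of 37 genes with a peak (59.5%) and 34 of 56 without (60.7%), against 4.50% of all protein-coding genes. Counting any annotated start, the shares were 83.8% and 78.6%, against 6.35%. Split by chromosome, 13 of 44 autosomal ribosomal protein genes with the initiator at the canonical start had a peak (29.5%). Without it there, 13 of 34 did (38.2%). For the X-linked ribosomal protein genes the counts were 9 of 12 and 2 of 3. These splits were not tested. Outside the ribosomal protein genes, 87 of 572 genes with the initiator at the canonical start had a peak (15.2%), beside 2141 of 13280 genes without it (16.1%). On X these shares were 22 of 91 (24.2%) and 646 of 2090 (30.9%).

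Further words were searched on both strands with 0 mismatches, in the 300 bases from 250 bp before the canonical start onwards. The DRE, TATCGATA, is bound by the growth-related factor Dref, and the core of Motif 1, GGTCACACT, by M1BP, a factor of ribosomal protein promoters. The DRE lay at 11 of 37 genes with a peak (29.7%) and 17 of 56 without (30.4%), against 8.94% of all protein-coding genes. The Motif 1 core lay at 5 of 37 (13.5%) and 5 of 56 (8.93%), against 5.87%. Both words were thus found at more of the ribosomal protein genes than of all genes, with and without a peak. GA-rich sequence is the known feature of MSL high-affinity sites. The word GAGAGA lay at 2 of 37 genes with a peak (5.41%) and 2 of 56 without (3.57%), against 12.6% of all protein-coding genes, and at the canonical start of 0 of the 15 X-linked genes. Counting any annotated start, GAGAGA lay at 5 of 37 (13.5%) and 2 of 56 (3.57%), against 17.1%, and at 2 of the 15 X-linked genes (13.3%), RpL36 and RpS19a. CACACA lay at 4 of 37 (10.8%) and 5 of 56 (8.93%), against 19.7%. These shares are descriptions of letters in a window and were not tested.

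**Figure D2:**
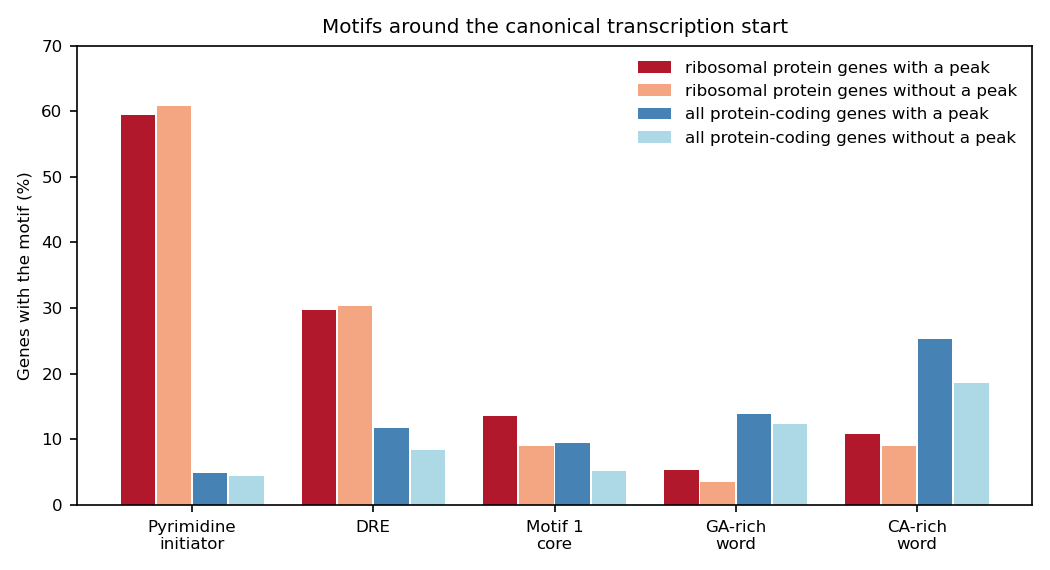
Percent of genes with each motif around the canonical transcription start, for ribosomal protein genes with and without a peak (red and light red) and all protein-coding genes with and without a peak (blue and light blue). The pyrimidine initiator stands at 59.5% and 60.7% in the ribosomal protein genes, and the GA-rich word at 5.41% and 3.57%.

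The same words were counted in a fixed window at the middle of each peak, so wide peaks were searched only in part. In the 200 bp around the midpoints of the 39 peaks at ribosomal protein genes, GAGAGA was found in 0. As an approximate upper limit, 3 of 39 peaks would be a share of 7.69%. GAGAGA was found in 307 of 1761 other peaks within 1 kb of a protein-coding start (17.4%) and in 140 of 708 peaks farther away (19.8%). CACACA was found in 6 of 39 (15.4%), beside 31.6% and 33.2%. The DRE was found in 6 of 39 (15.4%), beside 59 of 1761 (3.35%) and 2 of 708 (0.282%), and the Motif 1 core in 3 of 39 (7.69%), beside 4.77% and 0.424%.

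Most peaks sat on an annotated start, not always the canonical one. Of the 37 genes with a peak, 31 had a start inside it (83.8%), beside 59.4% of all protein-coding genes with a peak. On autosomes this held for 22 of 26 genes (84.6%, beside 58.0%) and on X for 9 of 11 (81.8%, beside 62.7%). The peak midpoint lay a median of 41.5 bp from the nearest start of the gene, over 39 pairs of a gene and a peak, against 155.5 bp over 2521 such pairs for all protein-coding genes. On X this median was 104 bp over 13 pairs, against 181.75 bp for all protein-coding genes on X, and on autosomes it was 35.25 bp over 26 pairs, against 144.5 bp. The midpoint was within 100 bp in 6 of 13 pairs on X and 18 of 26 on autosomes, beside 36.6% and 42.6% of the pairs of all protein-coding genes. Midpoints lay upstream of the start in 26 pairs and downstream in 13. The genes are short, with a median length of 1318 bp against 2166 bp for all protein-coding genes, and had a mean of 1.70 annotated starts against 1.41.

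**Figure D3:**
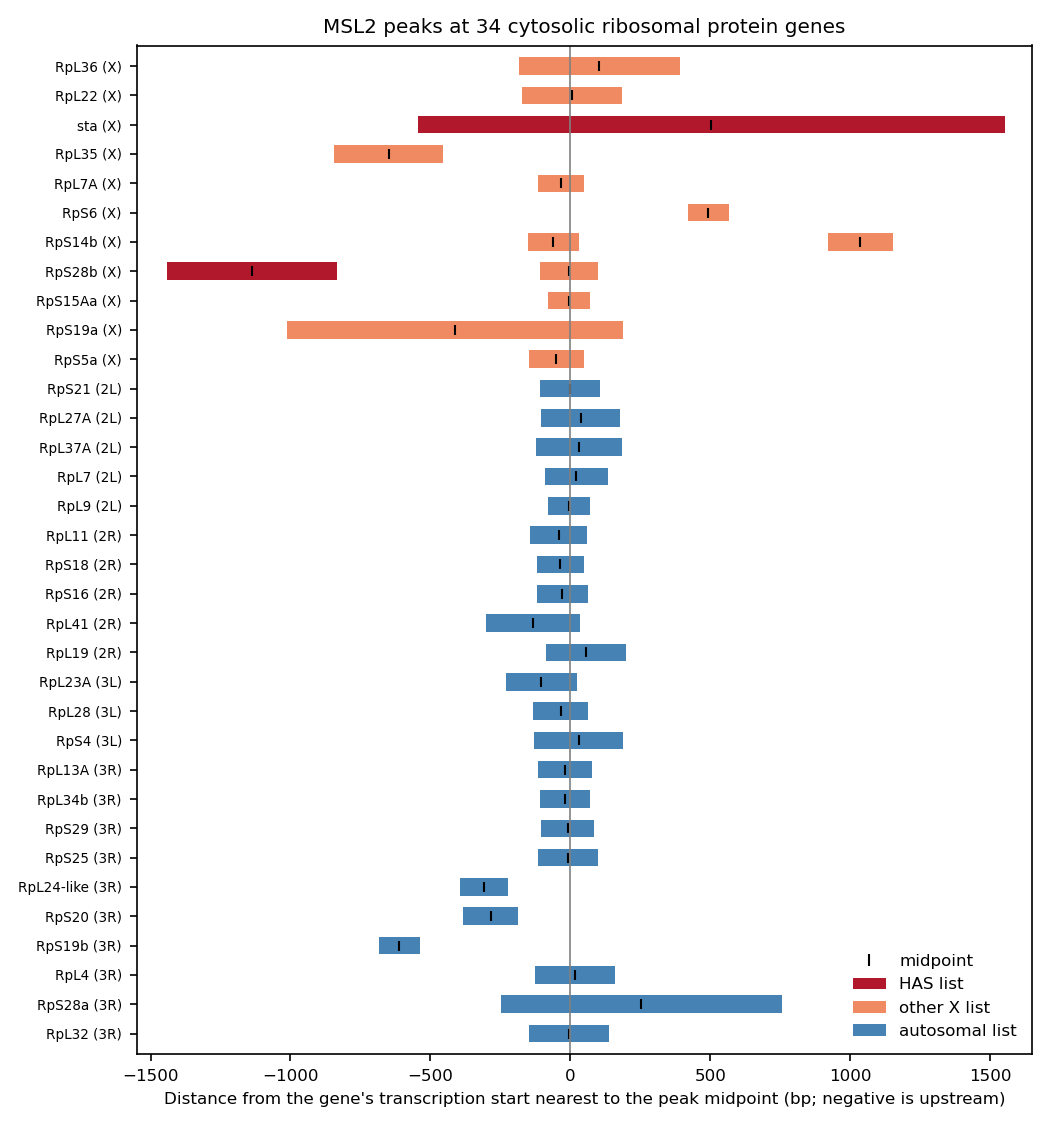
Extent of each MSL2 peak at 34 of the 37 ribosomal protein genes with a peak, in bp from the start of the gene nearest to the peak midpoint, with upstream to the left. Colours give the list (red HAS, orange other X, blue autosomal) and ticks mark midpoints. Most bars cross 0, and those of RpL35, RpS6, RpL24-like, RpS20 and RpS19b, the HAS at RpS28b and the second peak at RpS14b do not.

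On X, 2 of the 15 genes had an interval of the HAS list within 1 kb of a start, beside 3.6% of all protein-coding genes on X. The HAS at sta, which encodes the small subunit protein related to the laminin receptor, was 2099 bp wide (X, 1481471 to 1483569) and covered the whole gene (1481797 to 1483413). It was the widest peak at any ribosomal protein gene, against a median of 427 bp for the whole HAS list, its autosomal intervals included. The 80 HAS intervals within 1 kb of any protein-coding start had a median of 606.5 bp and reached 4107 bp. The HAS at sta also lay within 1 kb of a start of inc. RpS28b, which encodes a small subunit protein, had a HAS of 607 bp whose near edge lay 834 bp upstream, at the start of l(1)G0320. RpS28b also had a separate peak of the other X list, 208 bp wide (X, 9554514 to 9554721), whose midpoint lay 5.5 bp upstream of its own start. For the other X-linked ribosomal protein genes the nearest HAS lay between 4012 bp, at RpS15Aa, and 147991 bp, at RpS6.

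Of the X-linked large subunit genes, RpL22 had a peak of 359 bp (X, 764945 to 765303) with its midpoint 6 bp past the start, and no other protein-coding gene started within 1 kb of that peak. RpL7A had a peak of 163 bp (6533208 to 6533370) and RpL36 a peak of 577 bp (629024 to 629600), both over an annotated start. The peak at RpL7A did not cover the canonical start of that gene, at 6533167. The peak near RpL35 was 391 bp wide (5671557 to 5671947) and ended 454 bp before the gene, while its midpoint lay 60 bp from the start of Rab18, a small GTPase gene. That peak lay closer to the neighbour than to the ribosomal protein gene.

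Of the X-linked small subunit genes, RpS15Aa (13337635 to 13337786) and RpS5a (17148215 to 17148412) had narrow peaks of 152 bp and 198 bp over the start. RpS19a, whose human counterpart is mutated in Diamond-Blackfan anaemia, had a peak of 1203 bp (16636881 to 16638083), which covered its start and reached 1013 bp upstream of it. RpS6, which encodes the substrate of S6 kinase, had a peak of 150 bp (7900763 to 7900912) in a coding exon, 419 bp inside the gene. No start of RpS6 was covered. RpS14b had a peak of 184 bp over its start (7934746 to 7934929) and another of 231 bp (7936094 to 7936324) beyond its end, 313 bp from a start of Ubr3.

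The 4 X-linked genes without a peak were RpL17, RpS14a, RpL37-1 and RpS10b. RpS14a, the tandem neighbour of RpS14b, lay 1004 bp from the peak over the start of RpS14b and so fell just outside the window, while the farthest gene inside it was RpS19b at 536 bp. RpS10b lay 15179 bp, RpL17 15190 bp and RpL37-1 52891 bp from the nearest peak. The RpS14 copies are near-identical, and the labels do not state how reads matching both were treated.

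All 26 autosomal genes with a peak had it from the autosomal list, and none had more than 1. Large subunit genes made up 15 of them, out of 48 (31.2%), and small subunit genes 11 out of 30 (36.7%). On X the counts were 4 of 6 and 7 of 9. By arm, 11 of 23 genes on 3R had a peak (47.8%, beside 14.9% of all protein-coding genes on 3R), 7 of 21 on 2R (33.3%, beside 14.8%), 5 of 19 on 2L (26.3%, beside 12.4%) and 3 of 14 on 3L (21.4%, beside 11.8%). On 4 the only member, RpS3A, had none, and 3 of 80 genes there did. The arms were not tested against each other.

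The autosomal large subunit genes with a peak over the start were RpL27A, RpL37A, RpL7 and RpL9 on 2L, RpL11, RpL41 and RpL19 on 2R, RpL23A and RpL28 on 3L, and RpL13A, RpL34b, RpL4 and RpL32 on 3R. RpL11 is part of the 5S particle, and RpL32 is widely used as a reference gene in fly expression work. At RpL32 the peak was 287 bp wide (3R, 30046001 to 30046287) with its midpoint 4 bp from the canonical start at 30046140, and at RpL4 it was 286 bp wide (3R, 27922695 to 27922980) and 16.5 bp away. At RpL9 it was 151 bp wide (2L, 11004117 to 11004267), with its midpoint 3 bp from the start at 11004189. That start is not the canonical one of RpL9, which lies at 11004153. Widths in this set ran from 151 bp at RpL9 to 335 bp at RpL41, whose peak midpoint lay 48 bp from the start of NaCP60E. RpL24-like had a peak 221 bp upstream, with the start of CG5276 nearer to the midpoint.

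The autosomal small subunit genes with a peak over an annotated start included RpS21 on 2L, RpS18 and RpS16 on 2R, RpS4 on 3L, and RpS29, RpS25 and RpS28a on 3R. At RpS16 the peak covered the start at 22606127 but not the canonical start at 22605745. RpS21, a known Minute gene of Drosophila, had the closest midpoint of the 39, at 1.5 bp from its nearest annotated start, in a peak of 218 bp (2L, 2855960 to 2856177). That start, at 2856070, is not the canonical one of RpS21, which lies at 2856111. RpS28a had a peak of 1006 bp (3R, 30021892 to 30022897) that covered the whole 304 bp gene, and its midpoint was nearer to a start of Mgat2. RpS20 and RpS19b had peaks 187 bp and 536 bp upstream, nearest to the starts of CG17271 and CG5854.

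The median width of the 26 autosomal peaks was 217 bp, beside 232 bp for the 1222 peaks of that list within 1 kb of any protein-coding start. For the 11 peaks of the other X list it was 208 bp, beside 265 bp for 498 peaks. The narrowest peak was 150 bp in both lists, at ribosomal protein genes and elsewhere.

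The median distance from a start to the nearest peak was 0 bp for the X-linked ribosomal protein genes and 5512 bp for the autosomal ones, beside 5103 bp and 17756 bp for all protein-coding genes. For the 52 autosomal genes without a peak it was 29169.5 bp, beside 23341 bp for all autosomal protein-coding genes without one. The nearest misses on autosomes were RpL29 at 1764 bp, RpS9 at 2002 bp and RpLP0-like at 2047 bp. The farthest, RpL15, which lies in the pericentric heterochromatin of 3L, was 2133082 bp from a peak, followed by RpL5 at 368229 bp and RpL38 at 347563 bp.

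**Figure D4:**
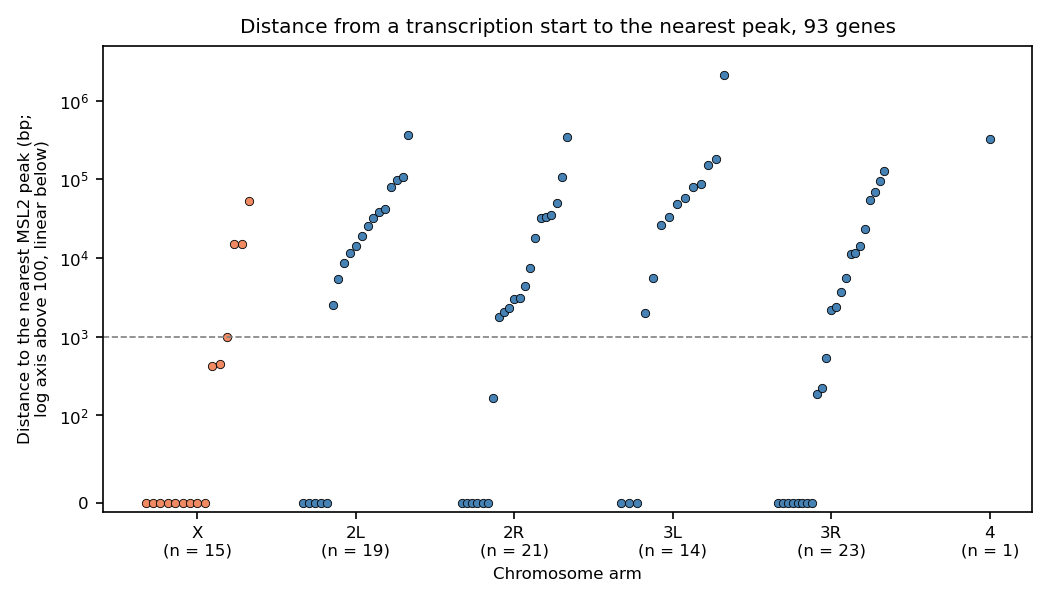
Distance in bp from the nearest annotated start of each of the 93 genes to the nearest MSL2 peak, by chromosome arm, with X in orange and autosomes in blue. The axis is logarithmic above 100 bp and linear below, and the dashed line marks the 1 kb window. RpS14a on X lies on the line at 1004 bp, and RpL15 is the highest point on 3L at 2133082 bp.

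Some proteins are encoded by more than 1 gene, a standard copy and a second copy that is often expressed mainly in the germline. Grouping by symbol gave 13 families with 27 genes. Of the families, 7 had a peak at 1 copy, 2 at more than 1 copy and 4 at none. The grouping counts -like genes as copies, and whether these encode the same protein was not checked. RpL22 and RpS5a, both on X, had a peak, while RpL22-like, enriched in the male germline, lay 107186 bp and RpS5b, enriched in the ovary, 11115 bp from a peak. RpS15Aa on X had a peak and RpS15Ab on 2R lay 49598 bp away. RpL7 and RpL34b had a peak, and RpL7-like and RpL34a lay 8577 bp and 3696 bp from one. RpS19a and RpS19b both counted, the latter through the peak near CG5854, as did RpS28a and RpS28b. In the RpL24 family the counted gene was RpL24-like, whose yeast counterpart acts in ribosome assembly, and RpL24 lay 98754 bp from a peak. The copies of RpL10A, RpL37, RpS10 and RpLP0 had none. Of the 5 genes with symbols ending in -like, 1 had a peak.

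Many ribosomal protein genes lie close to other genes. Another protein-coding gene started within 1 kb of a start for 59 of 93 genes (63.4%), beside 42.9% of all protein-coding genes. On X, 10 of 11 genes with such a neighbour had a peak and 1 of 4 without, and for other protein-coding genes on X these shares were 46.1% and 20.6%. On autosomes they were 19 of 48 (39.6%) and 7 of 30 (23.3%), beside 18.8% and 9.21%. Of the 37 genes with a peak, 29 had a peak that also lay within 1 kb of a start of another protein-coding gene, and for 8 that other gene held the nearest protein-coding start to every peak counted. The part that neighbours play in the counts was not tested.

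Many of these genes carry small nucleolar RNA (snoRNA) genes inside their introns, and snoRNAs guide the chemical modification of ribosomal RNA. A snoRNA gene on the same strand lay inside 29 of the 93 genes, and 17 of these 29 had a peak (58.6%), beside 20 of the 64 without a snoRNA (31.2%). On autosomes the counts were 12 of 23 (52.2%) and 14 of 55 (25.5%), and on X 5 of 6 and 6 of 9. Among other autosomal protein-coding genes, 24 of 52 with a snoRNA inside had a peak (46.2%), beside 13.2% of those without. On X these counts were 1 of 3 and 667 of 2178 (30.6%). RpS5a on X held 14 snoRNA genes, the most in the group among genes with a peak.

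Other gene lists of protein synthesis were counted in the same way. Mitochondrial ribosomal protein genes, which serve the ribosome of the organelle, had a peak at 7 of 11 genes on X (63.6%) and 10 of 62 on autosomes (16.1%). Translation factor genes had one at 4 of 7 on X and 16 of 47 on autosomes (34.0%), among them eEF1alpha1, the elongation factor that delivers tRNA, and eIF4A, the initiation helicase. Proteasome subunit genes had one at 3 of 6 on X and 4 of 42 on autosomes (9.52%). Of 32 ribosome biogenesis genes, 1 of 3 on X and 8 of 29 on autosomes (27.6%) had a peak, with bys on X and Nopp140, Ns1 and nop5 on autosomes. Of 14 growth regulators, 0 of 3 on X and 6 of 11 on autosomes had one, namely foxo, REPTOR, S6k, Mondo, Mad and brat. That list was matched by symbol, and whether each gene in it, Mad included, regulates ribosome production was not checked. No test was made between lists, and the Wilson intervals of the small ones are wide.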

How the data were processed

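The deposited data used were 3 lists of MSL2 peak positions, other values than chromosome, start and end being absent except for a score column in the autosomal list, which as deposited held only 0 and was not used. Per the labels, the authors' processing notes list bedtools, Bowtie2 2.3.0.1 and also MACS2 2.1.1.20160309.0, and the builds dm6 and BDGP6. The sources used here do not state peak threshold, pooling or controls. Repeated rows were counted once (170 rows gave 159 HAS), and 16 peaks on Y and unplaced scaffolds were left out. Starts were converted to 1-based positions.

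Genes and transcription starts came from Ensembl release 115 (BDGP6, annotation 54). Sequences came from the RefSeq Release 6 genome. Shares were compared between X and autosomes by Fisher's exact test, two-sided (Python 3.11.15, scipy 1.17.1). The overlap search was tested on simulated data. The genes, lists and tests were chosen with earlier results of these data known. Named individually were genes with a peak, except 3 that are counted but not reported here, all X-linked genes and the 3 autosomal genes without a peak nearest to one. Other genes named as copies, as the farthest from a peak, as examples from other lists or for their sequence were chosen after their values were seen. RIOK3, Tor and TRF2 of the comparison lists matched no symbol and were not analysed here.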

Additional observations from a re-analysis of the deposited data

How the results depend on the processing

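Windows of 200 bp, 500 bp and 2 kb, the midpoint or 50% of the interval in the window, the farthest upstream start only, and leaving out the HAS list or the -like genes kept the X excess, at 29.2 to 45.4 percentage points (Fisher's exact p from 0.00151 to 0.0406). With only peaks of at least the median width of their list, the counts were 6 of 15 on X and 11 of 78 on autosomes. The difference was then 25.9 points (Fisher's exact p = 0.028). Among genes with no start of any other gene within 1 kb the counts were 0 of 2 on X and 2 of 19 on autosomes, a difference of -10.5 points (exact p = 1), in which X holds too few genes to compare. Counting a peak only for the nearest start of any gene, a choice made after seeing the data, gave 7 on X and a difference of 21.0 points (exact p = 0.124). The median distances stayed within 0 to 412 bp on X and 5512 to 5603 bp on autosomes. No paired analysis was possible because the lists name no sample. Leaving out replicates was not possible for the same reason.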

Other observations

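A word was noticed at starts of ribosomal protein genes, RpS28b and RpS19a printed above among them, and then counted, so its count was chosen after the sequences and the peaks were known and no test was made. GCAGCCAAC, on either strand within the 300 bases around any annotated start, was found at 6 of 37 ribosomal protein genes with a peak (16.2%) and at 1 of 56 without (1.79%). Over all protein-coding genes it was found at 22 of 2265 with a peak (0.971%) and 56 of 11680 without (0.479%), so 7 of the 78 genes that hold it encode cytosolic ribosomal proteins. The sites are printed on the strand of the gene with 10 bases on each side, in the Release 6 genome, and capitals mark the word:
RpS28b (chrX:9554580-9554608, plus strand): cctgcgcaacGCAGCCAACttcacgtcgc
RpS19a (chrX:16637865-16637893, plus strand): actattaaccGCAGCCAACttcacgcgcc
RpS21 (chr2L:2856074-2856102, plus strand): cacgcgcagcGCAGCCAACttcacgtcca
RpL27A (chr2L:4458312-4458340, minus strand): tgctacaaccGCAGCCAACttcgcttctt
RpL28 (chr3L:3222973-3223001, minus strand): ttcggcaagcGCAGCCAACttcgcgctat
RpS6 (chrX:7901292-7901320, minus strand): ccctgcgctcGCAGCCAACagacctccgc
At RpS28b, RpS19a, RpS21, RpL27A and RpL28 the word was followed by ttc and lay inside the peak. Measured from 1 annotated start of each gene, it lay between 79 bp before and 14 bp after. At RpS21, RpL27A and RpL28 the start used was not the canonical one. At RpS6 it lay 21 bp after the start and outside the peak. RpS27, the gene without a peak, held it on the opposite strand. No factor is assigned to the word here.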
